A study of Mus musculus with 8 samples.

Results

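The striatal interneurons described here are the 821 cells, of 14690 annotated striatal cells, that the deposited striatal annotation calls inhibitory. The annotation came from the study's own clustering of these counts, and each cell's UMIs (unique molecular identifiers, which count captured mRNA molecules) were read from its own library by barcode. The single-cell RNA sequencing compared WT mice with Setd1a+/- littermates, which carry 1 CRISPR-Cas9 mutation, an 8-bp frameshift deletion in exon 15 of Setd1a, the gene of a histone H3 lysine 4 methyltransferase. There were 2 libraries per genotype, each from the pooled striata of 2 male C57BL/6N mice, and by the study's methods each biological replicate was made of a WT and a Setd1a+/- library. The sample labels give an age of 8 to 10 weeks where the methods give an older one, and they name the tissue as nucleus accumbens where the design text names dorsal and ventral striatum. WT replicates 1 and 2 held 246 and 189 interneurons and Setd1a+/- replicates 1 and 2 held 138 and 248. Since each library pools mice, the p-values below measure the spread between these libraries.

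Interneurons are the local-circuit cells of the striatum. They release GABA or acetylcholine onto the medium spiny neurons (MSNs), the projection neurons that make up most striatal neurons and carry either the D1 or the D2 dopamine receptor. The known classes include fast-spiking Pvalb and Pthlh cells, cells that release somatostatin (Sst), neuropeptide Y (Npy) and nitric oxide (made by Nos1), cholinergic cells, Th cells, and cells with Vip, Cck, Calb2 or Htr3a. Setd1a deposits H3K4me3, a mark of active promoters.

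Interneurons were the deepest cells of the tissue, with a median of 4787 UMIs per cell against 3167 in D1 MSNs and 3422 in D2 MSNs. The medians of the single libraries lay between 3799.5 UMIs in Setd1a+/- replicate 2 and 5829 in WT replicate 2. Summed over interneurons, the 4 libraries held 1320303, 1215769, 811931 and 1060568 UMIs, in the order WT replicates 1 and 2 and Setd1a+/- replicates 1 and 2 that is kept throughout. When every cell was thinned to 1000 UMIs, the median number of genes was 699 in interneurons, 676 in D1 MSNs and 664 in D2 MSNs. Setd1a+/- replicate 2 stood apart in its make-up, with 2.69% oligodendrocytes against 12.7% to 24.95% in the others and 40.4% D1 MSNs against 15.4% to 31.9%. A barcode that also occurred in another library was carried by 14 of the 821 interneurons and by 182 of all 14690 cells.

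The marker that goes with the annotation, Elavl2, an RNA-binding protein of neurons, was at 311, 394, 362 and 374 CPM (UMIs of a gene scaled to the same total UMIs in each library) in the 4 libraries. D1 and D2 MSNs had 12.5 and 8.71 CPM and neuroblasts, the next highest type, had 150 CPM. At least 1 Elavl2 UMI was found in 62.6% of interneurons, against 1.02% of oligodendrocytes, whose median depth was 2076 UMIs, and 4.10% of D1 MSNs. The label held for most cells but not for all. Of the 821 cells, 186 (22.7%) fell into subclusters with markers of excitatory neurons, and 97.3% of those cells had a UMI of Slc17a7 or Slc17a6, the vesicular glutamate transporters. A UMI of Gad1 or Gad2, the enzymes that make GABA, was found in 17.2% of them. In the other 635 cells the shares were 2.83% for the glutamate transporters and 94.96% for the Gad genes, at a median of 4431 UMIs against 6907.5 in the excitatory neuron-like cells. Oligodendrocytes, which should lack both pairs of genes, had shares of 0.256% and 6.65%. A further 12 cells carried oligodendrocyte transcripts beside Gad genes, and 69 cells carried MSN markers. Results that rest on these cells are given below with and without the excitatory neuron-like and oligodendrocyte-like cells. No doublet caller was run.

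Clustering the 821 cells gave 14 subclusters, numbered by size, and their leading genes are given as a description, since the clusters were drawn from the same counts. Pvalb-Pthlh-like cells formed subclusters 2 and 10, with 113 and 31 cells. Subcluster 2 held all 5 markers of that class, with the calcium buffer Pvalb at 438 CPM against 10.95 CPM in the other interneurons and the hormone-like peptide Pthlh at 775 against 24.5 CPM. Subcluster 10 shared Cox6a2, the muscle-type subunit of cytochrome c oxidase, at 2586 CPM, and was led besides by Spry2 and Cux2. Gad1 reached 1839 and 1876 CPM in these subclusters, while it was at 309 CPM in the 57 Sst-Npy-Nos1-like cells of subcluster 7. In subcluster 7, Sst and Npy were at 48985 and 33917 CPM, and Nos1, the neuronal nitric oxide synthase, was at 1387 CPM. The 23 cells of subcluster 13 were cholinergic-like, with all 8 markers of the class. They held the vesicular acetylcholine transporter Slc18a3 at 371 CPM, the choline transporter Slc5a7 at 2279 CPM and choline acetyltransferase (Chat) at 202 CPM, and Chat had no UMI in any other subcluster. They were the deepest cells of the set, with a median of 9942 UMIs. Elavl2 was highest in them, at 1234 CPM, and lowest in the excitatory neuron-like subcluster 12 (7.30 CPM), the MSN-like subcluster 6 (52.0 CPM) and subcluster 8 (59.1 CPM).

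The 30 cells of subcluster 11 were Vip-Cck-Calb2-Htr3a-like by Vip, Cck and Cnr1, the cannabinoid receptor, and they also carried 3 neurogliaform markers, Npy, Lamp5 and Id2. Vip was found in 40% of these cells and in no other interneuron, with 142, 0, 1 and 301 UMIs in the 4 libraries. The cells from WT replicate 2 thus lacked it, and those from Setd1a+/- replicate 1 nearly did. The 98 cells of subcluster 3 were led by Trh, thyrotropin-releasing hormone, at 904 CPM, by Th, tyrosine hydroxylase, at 654 CPM, and by the peptide galanin (Gal) at 301 CPM. They had 2 of the 4 Th class markers, under the 3 needed for a name, and are called by their leading genes. Subcluster 1, with 124 cells, was led by neurotensin (Nts, 786 CPM) with Cartpt, Calb2 and Foxp2. Subcluster 8, with 46 cells, was led by Lbhd2 and Zfhx3 and also held Nts (1161 CPM) and Cartpt, and subcluster 9, with 32 cells, held the calcium-binding protein Calb2 at 1883 CPM. Subcluster 6 was MSN-like, with 9 of 16 MSN markers, and its DARPP-32 gene Ppp1r1b was at 346 CPM against 1252 and 1423 CPM in D1 and D2 MSNs. Subclusters 4, 5 and 12, with 87, 70 and 29 cells, were excitatory neuron-like and held Slc17a7 at 621, 650 and 569 CPM. They were led by Bdnf and C1ql3, by Cplx3 and Nxph3, and by Tfap2d and Slc17a6, in that order. The name of subcluster 5 rests on 5 of 6 excitatory neuron markers, none of them among its 10 leading genes, which include the glutamate transporter Slc1a2, 1 of the 6 astrocyte markers (1346 CPM, in 100% of its cells). The other 5 astrocyte markers did not mark it. Subcluster 14 held the oligodendrocyte-like cells, with all 6 oligodendrocyte markers beside Gad1 at 474 CPM and Slc17a7 at 187 CPM.

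**Figure D1:**
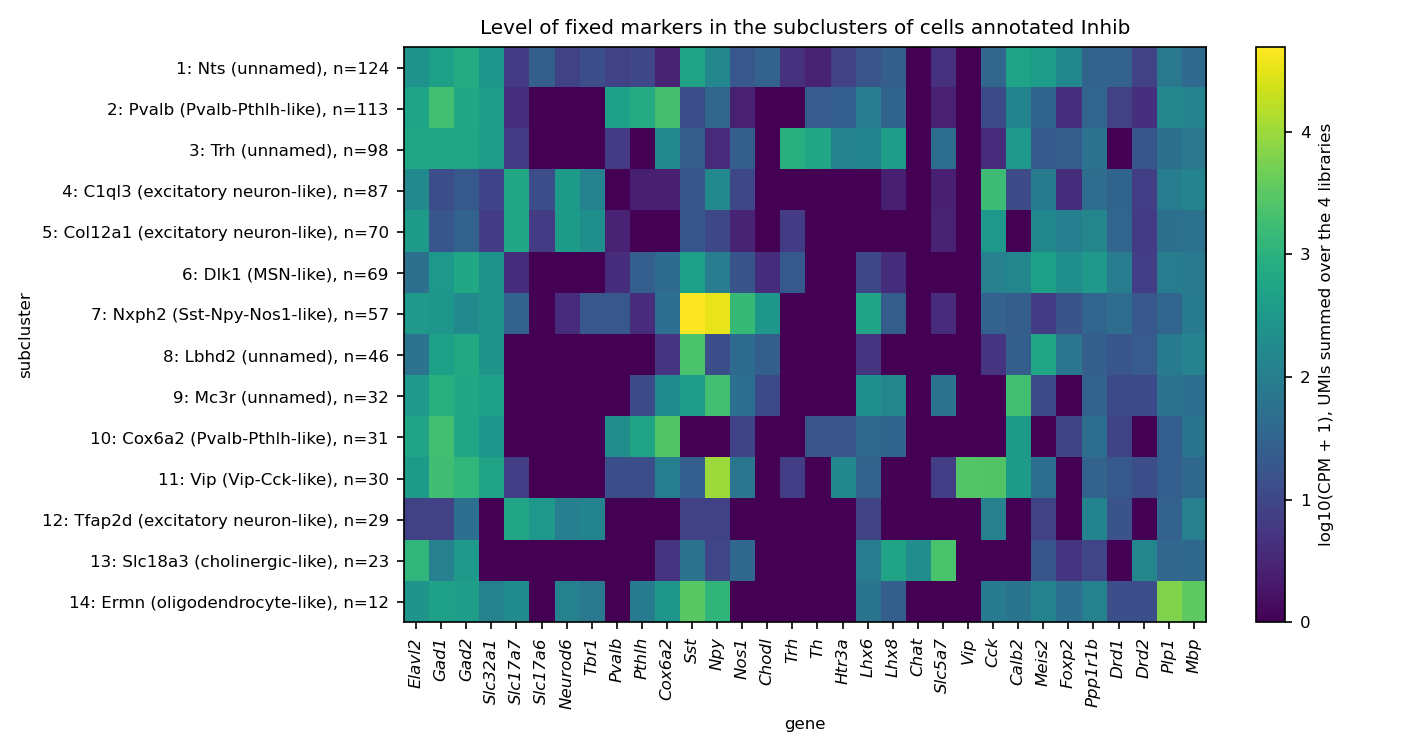
Levels of class markers in the 14 subclusters of striatal interneurons, with subclusters as rows and genes as columns. Colour gives log10(CPM + 1) of the UMIs summed over the 4 libraries. Markers of each class are high in 1 or a few subclusters, and Slc17a7 is high in subclusters 4, 5 and 12, where Gad1 and Gad2 are low.

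Among the leading genes, Sst of subcluster 7, Th of subcluster 3 and Cartpt of subclusters 1 and 8 have a promoter that holds TGACGTCA, the palindromic cAMP response element, and these promoters are shown as their sequence context. The windows run from 250 bases before to 50 bases after the annotated start, on the minus strand of GRCm38.p6 (RefSeq), and capitals mark the element.
Sst, chr16:23890795-23891094: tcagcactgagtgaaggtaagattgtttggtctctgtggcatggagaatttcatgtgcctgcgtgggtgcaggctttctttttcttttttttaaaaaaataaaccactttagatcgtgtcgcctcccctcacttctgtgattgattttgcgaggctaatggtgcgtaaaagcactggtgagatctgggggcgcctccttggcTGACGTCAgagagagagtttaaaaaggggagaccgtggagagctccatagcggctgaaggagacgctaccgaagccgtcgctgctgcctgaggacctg
Th, chr7:142899946-142900245: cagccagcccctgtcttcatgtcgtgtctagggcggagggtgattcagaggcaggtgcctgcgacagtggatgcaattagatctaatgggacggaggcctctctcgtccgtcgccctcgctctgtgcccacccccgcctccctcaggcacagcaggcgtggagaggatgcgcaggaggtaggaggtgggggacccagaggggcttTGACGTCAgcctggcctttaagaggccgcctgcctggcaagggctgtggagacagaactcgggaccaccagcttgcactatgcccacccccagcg
Cartpt, chr13:99900634-99900933: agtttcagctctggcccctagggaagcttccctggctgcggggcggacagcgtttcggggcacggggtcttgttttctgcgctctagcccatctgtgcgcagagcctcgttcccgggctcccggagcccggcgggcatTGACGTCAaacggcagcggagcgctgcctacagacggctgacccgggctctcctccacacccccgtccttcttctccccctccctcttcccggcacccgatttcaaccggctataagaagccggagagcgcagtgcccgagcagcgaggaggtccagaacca
The first base of the element lay at -48 for Sst, -45 for Th and -112 for Cartpt, counted from the start. Of the 134 leading genes listed, 103 had a RefSeq promoter here, and 5 of their 147 promoters (3.40%) held the element, the other genes being Hhip and Kctd8. Of all 32851 promoters, 588 (1.79%) held it. These matches are descriptions of the letters and carry no test.

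Against the other striatal types, interneurons stood out by peptides and by genes of the excitatory neuron-like cells. The 20 genes with the largest ratio of mean CPM in interneurons to that in the next highest type (1 CPM added to both) were Sst, Slc17a7, Neurod6, Crhbp, Cck, Npy, Tbr1, Pthlh, Pnoc, Hs3st2, Slc10a4, Nrn1, Nos1, Resp18, Crabp1, Kit, Cox6a2, Syt13, Lhx6 and Nrip3. Since the cell types were themselves drawn from these counts, the levels are given as a description with no test. Sst was at 2040, 5692, 5525 and 3681 CPM, 83.4 times the level in OPCs, the next type. Npy was at 1091, 4215, 3605 and 3958 CPM and 29.1 times its next level, also in OPCs. Both peptides were lowest in WT replicate 1, which held the smallest share of subcluster 7 cells. An Sst UMI was found in 20.8% of interneurons and also in 9.91% of D1 MSNs and in 6.82% of oligodendrocytes, which should lack the gene and give the background of that share.

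Other genes of this group were spread more widely over the cells or belonged to other subclasses. Resp18, a protein of the secretory pathway in neuroendocrine cells, was at 1041, 1114, 1011 and 1010 CPM, 14.1 times its level in OPCs, and had a UMI in 87.2% of interneurons against 1.71% of oligodendrocytes. The next of the 20 genes by this measure, Syt13, had a UMI in 45.7% of interneurons. Kit, a receptor tyrosine kinase, was at 98.5, 178, 123 and 196 CPM, and Lhx6, a homeodomain factor of interneurons from the medial ganglionic eminence, was at 59.1, 129, 77.6 and 62.2 CPM. Crhbp, which binds corticotropin-releasing hormone, was at 36.4, 84.7, 85.0 and 60.3 CPM, with 1.09 CPM in D2 MSNs, the next type. Without the excitatory neuron-like and oligodendrocyte-like cells, 15 of the 20 genes stayed in the group. The ratio of Slc17a7 went from 45.0 to 1.52, that of Neurod6, a factor of cortical excitatory neurons, from 38.7 to 1.06, and that of Nrn1 from 17.8 to 0.694, while that of Sst went from 83.4 to 119 and that of Npy from 29.1 to 41.7. Cells thinned to 1000 UMIs left 17 of the 20.

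**Figure D2:**
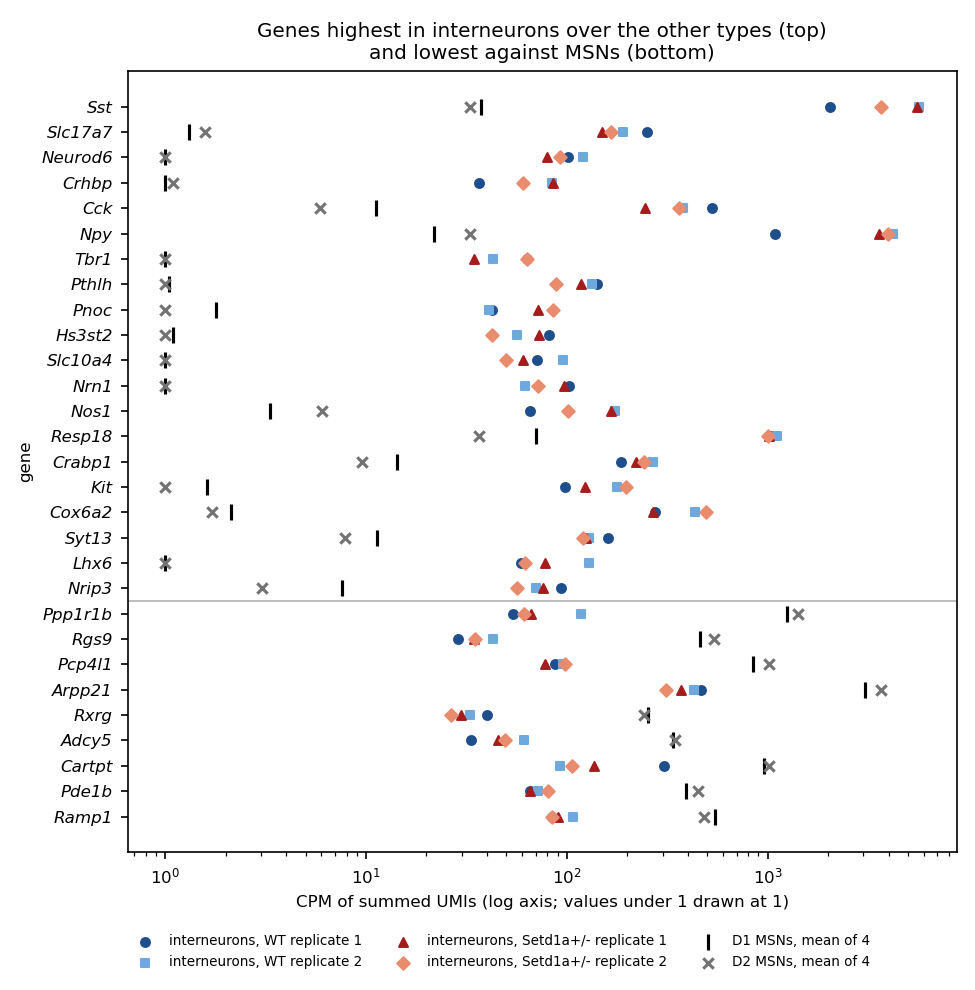
Level of 29 genes in interneurons of each library (coloured points) and in D1 and D2 MSNs (mean over the 4 libraries; bars and crosses), on a log axis in CPM with values under 1 drawn at 1. The 20 genes above the line lie to the right of both MSN means in all 4 libraries, and the 9 genes below it lie to the left of both.

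Among the genes furthest below the MSNs were Ppp1r1b, Rgs9, Pcp4l1, Arpp21, Rxrg, Adcy5, Cartpt, Pde1b and Ramp1, which include several parts of the dopamine and cAMP signalling of MSNs. Ppp1r1b was at 53.8, 118, 66.5 and 61.3 CPM, which is 0.0605 times its level in D1 MSNs, the lower of the MSN types. Rgs9, a regulator of G protein signalling, was at 28.8, 42.8, 34.5 and 34.9 CPM against 462 and 540 CPM in D1 and D2 MSNs. Arpp21, a cAMP-regulated phosphoprotein, was at 468, 428, 371 and 311 CPM against 3041 and 3659 CPM. A UMI of Ppp1r1b was found in 21.9% of interneurons, 85.7% of D1 MSNs and 8.27% of oligodendrocytes. Part of it came from the MSN-like subcluster 6, described above.

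Some lists of interneuron genes were higher than in the other types, and others were not. A ratio over 2 to the next highest type was reached by 369 of the 16533 genes with a UMI in interneurons, whose median ratio was 0.534. Of the 15 peptide genes, 8 passed that ratio, with a list median of 2.41, and 7 of the 8 cholinergic genes and all 5 Sst-Npy-Nos1 genes did. Tac1, Penk and Pdyn, the peptides of the MSNs, were at 0.0385, 0.0236 and 0.112 times the level of the MSN type that was highest. The list median was 0.371 for transcription factors, 0.243 for neurogliaform genes (1 of 5 passed) and 0.104 for the perineuronal matrix (1 of 7 passed). The GABA genes were shared with MSNs, with a list median of 0.860, and none of the 6 passed. Gad1 was at 588 ± 119 CPM (SD, n = 4 libraries) against 347 and 354 CPM in D1 and D2 MSNs, whereas Gad2 was at 438 ± 62.3 CPM against 564 and 489 CPM. These levels include the excitatory neuron-like cells. The 6 genes summed to 1305, 1739, 1753 and 1608 CPM. Without the excitatory neuron-like and oligodendrocyte-like cells they summed to 1897, 2380, 2299 and 2415 CPM. The sums were 1439, 1485, 1461 and 1384 CPM in D1 MSNs and 1390, 1428, 1349 and 1266 CPM in D2 MSNs. Of the 24 genes of the transcription factor list, which also holds the RNA-binding protein gene Elavl2, 3 passed. They were Lhx6, the cholinergic factor Lhx8 and Elavl2, the marker that goes with the annotation. Of 23 neuromodulator receptors 8 passed, including the substance P receptor Tacr1 (43.3 ± 18.0 CPM) and the neurokinin receptor Tacr3 (15.7 ± 3.28 CPM), while the dopamine receptors Drd1 and Drd2 were at 25.9 and 16.4 CPM against 152 and 182 CPM in their own MSN type. Of 12 fast-spiking channels 4 passed, among them Kcnc1 and Kcnc2, potassium channels of rapidly firing cells, at 106 ± 10.7 and 24.3 ± 6.18 CPM. Of 19 vesicle release genes 15 were highest in interneurons but only 2 passed a ratio of 2, Stx1a and Rims1 at 3.07 and 2.82. Of the 16533 genes with a UMI 2867 were highest in interneurons, as were 994 of the 3378 genes high enough to be ranked. The H3K4 methylation machinery had a median ratio of 0.736 over 19 genes, and none passed.

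The share of interneurons among the annotated cells overlapped between genotypes. Among neurons it was narrowly higher in both Setd1a+/- libraries, but only with the excitatory neuron-like and oligodendrocyte-like cells counted as interneurons. Interneurons were 5.64% of the annotated cells in WT replicate 1 (95% Wilson interval 4.99 to 6.37, for counting error only), 4.68% (4.07 to 5.37) in WT replicate 2, 3.64% (3.09 to 4.28) in Setd1a+/- replicate 1 and 9.94% (8.83 to 11.2) in Setd1a+/- replicate 2. Setd1a+/- libraries were thus both the lowest and the highest. The means were 5.16% ± 0.680 (SD, n = 2) in WT and 6.79% ± 4.46 in Setd1a+/-, a difference of 1.63 percentage points (two-sided exact permutation test, p = 1, where 2 against 2 libraries cannot give less than 0.33). Without Setd1a+/- replicate 2 the difference was -1.52. As a share of neurons, the values were 12.63%, 8.48%, 13.07% and 12.76%, a difference of 2.36 points (p = 0.33, the smallest that the exact test can give). Without the excitatory neuron-like and oligodendrocyte-like cells 187, 146, 107 and 183 interneurons remained. D1 MSNs numbered 1026, 1287, 583 and 1008, and D2 MSNs 676, 752, 335 and 688. The share of the remaining interneurons among neurons lay lower in Setd1a+/- replicate 2 than in WT replicate 1. The genotypes thus overlapped, and this share was not tested. Among the annotated cells the remaining interneurons were 4.29%, 3.61%, 2.82% and 7.33%, which again overlapped.

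Within the interneurons, 5 of the 14 subclusters had shares that did not overlap between genotypes, each with p = 0.33, the smallest possible in the exact permutation test. A fraction of 0.33 would also separate if the genotype labels were shuffled among the libraries, and 5 of 14 is near that fraction. The Trh and Th subcluster 3 was 7.72% and 11.6% of interneurons in WT and 14.5% and 14.9% in Setd1a+/-, and subcluster 11 was 2.44% and 2.65% against 2.90% and 6.05%. The other 3 lay lower in Setd1a+/-. The MSN-like subcluster 6 was 11.8% and 12.2% in WT against 2.90% and 5.24%, the excitatory neuron-like subcluster 5 was 10.2% and 10.6% against 6.52% and 6.45%, and the cholinergic-like subcluster 13 was 2.85% and 4.23% against 1.45% and 2.42%. Subcluster 8 reached 18.8% in Setd1a+/- replicate 1 and lay between 1.61% and 5.29% in the rest, and subcluster 1 reached 24.4% in WT replicate 1 against 6.88% in WT replicate 2. The Pvalb-Pthlh-like subclusters together were even, at 16.3%, 19.6%, 15.2% and 18.5%. The subclusters were drawn partly on genes that differ below, so a share and the level of its leading genes are not separate measurements.

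**Figure D3:**
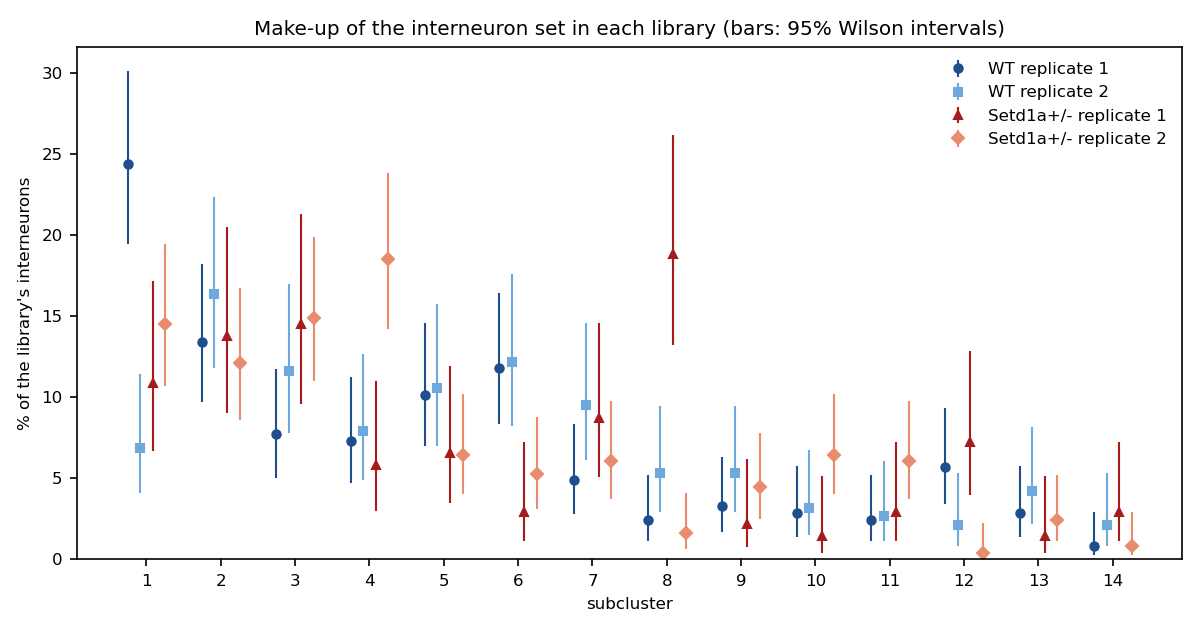
Share of each library's interneurons in each of the 14 subclusters, in percent, with 95% Wilson intervals that cover counting error only. The 2 WT and 2 Setd1a+/- points separate in subclusters 3, 5, 6, 11 and 13, and replicates of 1 genotype lie far apart in subclusters 1, 4 and 8.

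To ask what the loss of 1 Setd1a copy changed, interneuron UMIs were summed per library and the genotypes compared across all genes. Setd1a itself was at 13.6, 16.5, 9.85 and 14.1 CPM, from 18, 20, 8 and 15 UMIs, and the genotypes overlapped. Its log2 difference (Setd1a+/- minus WT) was -0.25 ± 0.42 (SE) with an unadjusted p of 0.562, and it was -0.13 in D1 MSNs and -0.52 in D2 MSNs. Short tags at the 3' end of the mRNA do not show an 8-bp deletion, so the level does not check the labels. No gene passed the study's cut-offs for striatum, a fold change above 2 and a false discovery rate (FDR) under 0.05, in edgeR's quasi-likelihood test with Benjamini-Hochberg adjustment, so 0% of the 9195 genes tested were called. The study itself, with a different test that took cells as its units, did report changed genes in striatal interneurons at these cut-offs. At an unadjusted p under 0.05 there were 279 genes, 147 higher in Setd1a+/- (1.6%) and 132 lower (1.44%), and DESeq2 called 0 with 51 at that p. With the replicate number as a block, 8 genes (0.087%) were called. That fit has a further term for the same 4 libraries, so its p-values lean heavily on the spread borrowed from other genes. The differences were positive for Gal, Fos, Egr3, Mt2, Ndst4, Hba-a1 and Hbb-bs and negative for Cplx3. The genotypes overlapped for Hba-a1 (2.27, 13.2, 6.16 and 170 CPM) and Hbb-bs (32.6, 88.8, 55.4 and 270 CPM). Without the excitatory neuron-like and oligodendrocyte-like cells 0 of 8003 genes (0%) were called, and 18 (0.225%) with the block. Cells with at least 2 UMIs summed over the MSN markers Drd1, Drd2, Adora2a and Ppp1r1b were also left out, which kept 218, 143, 115 and 233 cells. Drd2 also marked the cholinergic-like subcluster 13. Without those cells 0 of 8589 genes (0%) were called with the block. The log2 differences there were 1.75 for Gal, 0.95 for Fos and -1.92 for Cplx3, beside 2.03, 1.18 and -1.62 with the block in all interneurons. The adjusted p in edgeR was 0.255, 0.365 and 0.0741. In cells thinned to 1000 UMIs 2 of 3819 genes (0.0524%), Vip and Mt2, were called with the block. Before thinning Vip had 142, 0, 1 and 301 UMIs, from 2, 0, 1 and 9 cells, so the genotypes overlapped. In WT replicate 1, 82 of its UMIs came from 1 cell. In CPM, without the library scaling of the edgeR fit, the 2 Setd1a+/- libraries both lay above the 2 WT libraries for 1011 genes (11%) and both below for 1718 (18.7%). In the fit itself 4727 of the 9195 differences were positive, with a median of 0.008 on the log2 scale.

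The genes with the smallest p whose genotypes did not overlap included peptides and receptors of particular interneurons. Gal was at 9.09 and 13.2 CPM in the WT libraries against 29.6 and 60.3 CPM in the Setd1a+/- libraries, and both mutant libraries lay above both WT libraries. Its log2 difference was 2.09 ± 0.39 (SE), with an adjusted p of 0.664 in edgeR's test and 0.00371 with the replicate block, and the difference was 1.45 without Setd1a+/- replicate 2. Subcluster 3 held 91.4% of the Gal UMIs, and within it Gal was at 130, 177, 215 and 599 CPM, again without overlap (adjusted p = 0.997 in edgeR and 0.00814 with the block). Of its 19 UMIs there in Setd1a+/- replicate 1, 12 came from 1 cell. Trh, whose UMIs lay to 96.4% in the same subcluster, was at 60.6, 53.5, 122 and 81.1 CPM over all interneurons and at 1036, 696, 1110 and 821 CPM within it, where the genotypes overlapped. Htr3a, the ionotropic serotonin receptor, was at 12.1, 4.94, 27.1 and 38.7 CPM (log2 1.98 ± 0.42, adjusted p = 0.768 in edgeR and 0.0558 with the block). It was called with the block without the excitatory neuron-like and oligodendrocyte-like cells (log2 1.96, adjusted p = 0.000428 in edgeR), and its log2 difference was 2.76 without WT replicate 1. Of its 41 UMIs in Setd1a+/- replicate 2, 18 came from 1 cell of subcluster 11. Pnoc, the precursor of nociceptin, was at 42.4, 41.1, 71.4 and 84.9 CPM, and subcluster 11 held 41.7% of it.

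Other genes had many of their UMIs in the excitatory neuron-like or MSN-like cells. Cplx3, a complexin of vesicle release, was at 58.3 and 89.7 CPM in the WT libraries against 17.2 and 29.2 CPM in the mutants, a log2 difference of -1.58 ± 0.31 (adjusted p = 0.664 in edgeR and 0.00314 with the block). Subcluster 5 held 82.7% of its UMIs, and without the excitatory neuron-like and oligodendrocyte-like cells the difference was 0.39 (adjusted p = 0.999 in edgeR). Within subcluster 5 Cplx3 was at 315, 556, 155 and 182 CPM, so it lay lower in both mutant libraries within these cells too. Hpcal4, a neuronal calcium sensor, was at 210, 201, 127 and 116 CPM, with 39.4% of its UMIs in the same subcluster and 67.6% in the 3 excitatory neuron-like subclusters together. Fxyd7, a regulator of the sodium pump, was at 375, 351, 251 and 196 CPM (log2 -0.66), with 63.2% of its UMIs in those 3 subclusters, and its log2 difference was -0.67 without the excitatory neuron-like and oligodendrocyte-like cells. Dlk1, a ligand of the Notch family, was at 44.7, 17.3, 7.39 and 8.49 CPM, and 52.6% of it lay in the MSN-like subcluster 6. Its log2 difference was -1.90, and -1.06 without WT replicate 1. The remaining genes of smallest p, immediate early genes aside, were Thyn1, Hspa13 and Cap1, which lay lower in Setd1a+/- with log2 differences of -0.79, -0.93 and -1.49, and the clock gene Nr1d2 and the metallothionein Mt1, which lay higher at 0.80 and 0.62. Cap1 was at 67.4, 25.5, 16.0 and 16.0 CPM, and its difference was -0.63 without WT replicate 1. Over all interneurons neither Fxyd7 nor these 5 genes had an adjusted p under 0.05 in edgeR with or without the block. Without the excitatory neuron-like and oligodendrocyte-like cells and with the block, the adjusted p in edgeR was 0.00429 for Hspa13, 0.0408 for Thyn1 and 0.00184 for Mt1, and Hspa13 alone of these also passed the fold change above 2. With 1 library left out, so that a genotype rested on 1 library, some of these genes changed their side of the threshold, Fxyd7 and Cap1 among them. How much of each difference comes from the share of a subcluster was not tested.

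Single cells carried much of the signal of Hba-a1, Hbb-bs and Mt2, which were called with the block. Of 204 UMIs of the haemoglobin gene Hba-a1, 169 came from 1 cell of Setd1a+/- replicate 2, and the same cell held 260 of 482 UMIs of Hbb-bs. Of 274 UMIs of the metallothionein Mt2, 105 came from 1 cell of Setd1a+/- replicate 1, which also held 166 of the 400 Mt1 UMIs of that library. Without these 2 cells edgeR called 0 genes without the block and 4 with it, namely Cplx3, Fos, Gal and Ndst4. With the block, the log2 differences were then 0.17 for Hba-a1, -0.53 for Hbb-bs and 0.83 for Mt2, beside 3.45, 1.35 and 1.84 with all cells. The log2 difference of Egr3 with the block was then 1.27, beside 1.26 with all cells (adjusted p = 0.0924 in edgeR). Mt1 was then at 266, 313, 292 and 373 CPM, so that the genotypes overlapped. Ndst4, a heparan sulfate sulfotransferase, was at 3.79, 13.2, 24.6 and 44.3 CPM from 88 UMIs in 56 cells, and 27 of these UMIs lay in subcluster 4 of Setd1a+/- replicate 2. Its log2 difference was 2.11, and it was 1.44 without WT replicate 1 and 3.22 without WT replicate 2. With the block it was 1.33 without the excitatory neuron-like and oligodendrocyte-like cells (adjusted p = 0.225 in edgeR).

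**Figure D4:**
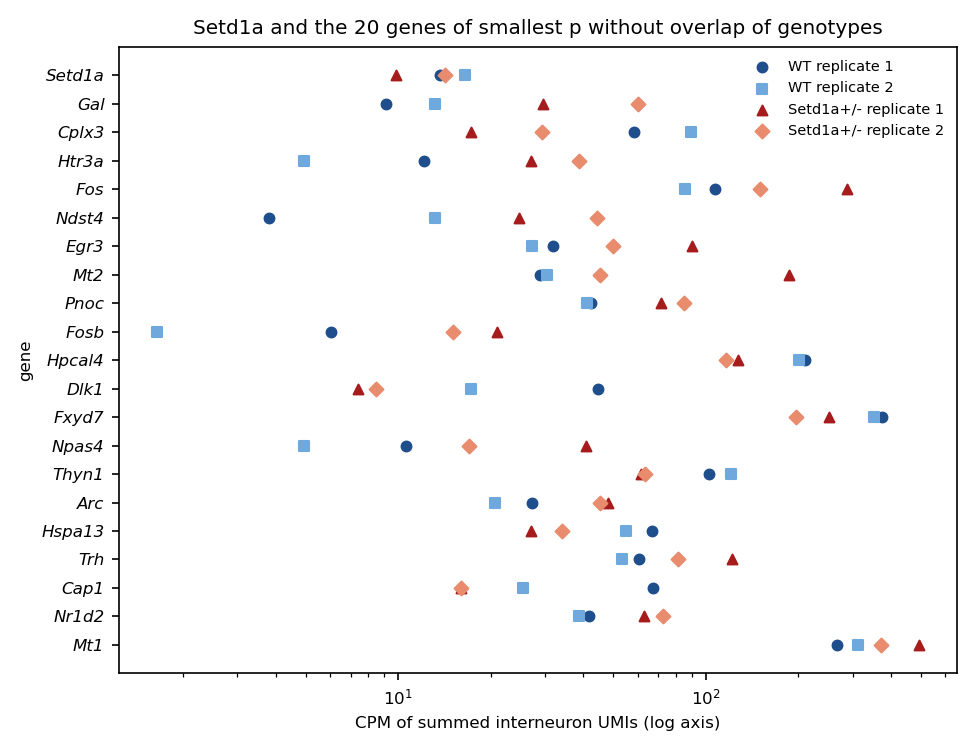
Level of Setd1a and of the 20 genes with the smallest p among those whose genotypes did not overlap, in CPM on a log axis, with 1 point per library. The genes were chosen for not overlapping, so the gap between blue (WT) and red (Setd1a+/-) points is a description, and Setd1a, at the top, overlaps.

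Of 13 immediate early and stress genes that could be tested, 8 lay higher in both Setd1a+/- libraries. These genes are switched on rapidly by neuronal activity or stress, and they were left out of the clustering. The list has 15 genes, and the 8 (Fos, Fosb, Junb, Egr1, Btg2, Npas4, Nr4a1 and Arc) had an unadjusted p under 0.05, beside 1.6% of all genes tested that did so in this direction. The difference was negative for 3 of the 13, down to -0.47 on the log2 scale, and none passed the adjusted test without the block. The median log2 difference of the list was 0.79, beside 0.01 over all genes tested. Fos was at 107, 85.5, 287 and 150 CPM (log2 1.22 ± 0.26, adjusted p = 0.768 in edgeR and 0.00295 with the block). Egr1 was at 101, 70.7, 176 and 116 CPM, and Npas4, a factor of activity-dependent synapse formation, at 10.6, 4.94, 40.6 and 17.0 CPM. Egr3, a further immediate early gene outside the list, was at 31.8, 27.1, 89.9 and 49.97 CPM (adjusted p = 0.929 in edgeR and 0.0405 with the block). The excitatory neuron-like subclusters held 25.1% of the Fos UMIs, 66.2% of those of Egr3 and 53.5% of those of Npas4. The stress-linked members Jun, Jund and Hspa1a overlapped, at 27.3, 14.8, 14.8 and 16.0 CPM for Jun. Summed over the list, interneurons had 571, 475, 1033 and 718 CPM, D1 MSNs 693, 703, 813 and 667 CPM, and D2 MSNs 1073, 901, 1662 and 1191 CPM. In D2 MSNs 8 of 13 tested genes of the list had an unadjusted p under 0.05, all higher in Setd1a+/-, with a median of 0.78, and in D1 MSNs 0 of 14 did, with a median of 0.17. Over all genes of the D2 and D1 fits 1.26% and 1.01% lay higher at that p. These types come from the same 4 libraries, and Setd1a+/- replicate 1 was highest in each of the 3. Without the excitatory neuron-like and oligodendrocyte-like cells the interneuron list had 8 of 12 genes at that p, all higher, and a median of 0.99, where 1.84% of all genes lay higher at that p.

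The direction of the list's level was not the same in every subcluster. Its summed level lay higher in both Setd1a+/- libraries in subclusters 2, 4, 6, 9 and 11. In the Pvalb-Pthlh-like subcluster 2 it was 297, 308, 518 and 442 CPM, and in subcluster 11 it was 802, 283, 3172 and 1691 CPM. The third of these values came from 4 cells, of which 1 held 29 of 44 Fos UMIs. In the Trh and Th subcluster 3 it was lower in both, at 1050, 983, 328 and 434 CPM. There Fos was at 489, 210, 22.7 and 106 CPM, from 34, 19, 2 and 11 UMIs of which 18 in WT replicate 1 came from 1 cell, with an adjusted p of 0.166 in edgeR and 6.81e-05 with the replicate block, and Junb was at 201, 376, 68.0 and 77.2 CPM, with an adjusted p of 0.166 in edgeR and 0.0013 with the block. For Junb, 1 cell gave 13 of the 34 UMIs in WT replicate 2 and 1 cell gave all 6 in Setd1a+/- replicate 1. In the summed level of the list the other 8 subclusters overlapped. A fraction of 0.33 of subclusters would also separate, in either direction, if the genotype labels were shuffled among the libraries. The difference between subclusters was not tested, and the smallest library of subclusters 4, 6, 9 and 11 held 3 to 8 cells. Of the 12 genes of the list with a RefSeq promoter, 2 held the palindromic cAMP response element there, Btg2 and Dusp1, beside 1.79% of all promoters. Only the full palindrome was searched, so variants of the element were not counted. Dusp1 is not among the genes named above as higher. Btg2, an antiproliferative gene, lay higher in Setd1a+/- (65.9, 40.3, 88.7 and 89.6 CPM). Its promoter is shown as an example on the minus strand of GRCm38.p6 (RefSeq), with the element in capitals at -166.
Btg2, chr1:134079106-134079405: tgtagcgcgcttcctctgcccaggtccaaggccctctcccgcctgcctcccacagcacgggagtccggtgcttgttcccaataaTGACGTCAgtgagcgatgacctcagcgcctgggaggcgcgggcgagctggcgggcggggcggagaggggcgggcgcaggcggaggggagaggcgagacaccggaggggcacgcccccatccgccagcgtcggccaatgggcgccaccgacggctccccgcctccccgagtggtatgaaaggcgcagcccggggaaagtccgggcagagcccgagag

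**Figure D5:**
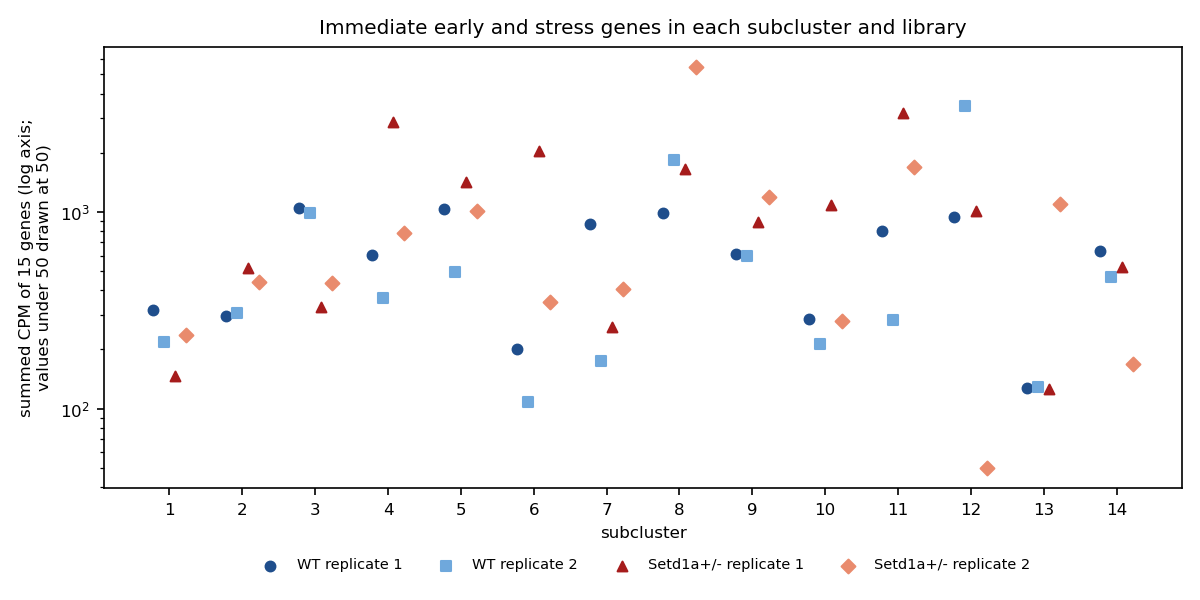
Summed level of the 15 immediate early and stress genes in each of the 14 subclusters and each library, in CPM on a log axis with values under 50 drawn at 50. The Setd1a+/- points lie above the WT points in subclusters 2, 4, 6, 9 and 11 and below them in subcluster 3, and some subclusters hold few cells per library.

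No gene of the lists that define interneurons passed the adjusted test without the block, and the number at an unadjusted p under 0.05, which 3.03% of all genes tested reached, varied between lists. In the GABA list 0 of 6 genes had an unadjusted p under 0.05, with Gad1 at 414, 675, 653 and 608 CPM and a list median of 0.11 on the log2 scale. Sst and Npy overlapped between genotypes, and Pvalb was at 54.5, 74.8, 32.0 and 98.1 CPM, and of the 5 Pvalb-Pthlh and 5 Sst-Npy-Nos1 genes none had such a p. Among the 7 tested cholinergic genes all differences were negative, with a median of -0.62, and 2 had an unadjusted p under 0.05. Without the excitatory neuron-like and oligodendrocyte-like cells 4 of the 7 did, all lower in Setd1a+/-, beside 3.49% of all genes in either direction. Slc17a8, a glutamate transporter that cholinergic interneurons also carry, was at 43.2, 43.6, 30.8 and 7.54 CPM (log2 -1.22 ± 0.41, and -2.47 without Setd1a+/- replicate 1 and -0.45 without Setd1a+/- replicate 2), and without those cells it had an adjusted p of 0.9992 in edgeR and was called with the block (0.0305). Slc18a3 was at 24.99, 25.5, 16.0 and 10.4 CPM. Of the 143 Slc17a8 UMIs of all libraries, 17 came from 1 cell of Setd1a+/- replicate 1. The share of subcluster 13 lay lower in the Setd1a+/- libraries, as given above, and it held 7, 8, 2 and 6 cells in the 4 libraries. All 8 genes of the cholinergic list marked it, so their differences and its share are not separate measurements. Of 11 GABA-A receptor subunits 1 had an unadjusted p under 0.05, Gabra2, at 93.9, 64.2, 115 and 141 CPM. Of 18 vesicle release genes and 9 AMPA and NMDA receptor subunits none did, and the medians were -0.03 and 0.03. In the H3K4 methylation machinery, with 19 genes, 1 did, the methyltransferase Kmt2d, at 53.0, 45.2, 54.2 and 97.1 CPM, and the list median was 0.09. Its relative Kmt2a was at 94.7, 84.7, 107 and 84.9 CPM. Of the 6 genes of the Vip-Cck-Calb2-Htr3a list 2 did, Htr3a higher and Cck lower (529, 378, 244 and 360 CPM), and of the 4 tested neurogliaform genes 1 did, Reln, which lay higher (9.09, 4.94, 17.2 and 14.1 CPM). Without the excitatory neuron-like and oligodendrocyte-like cells these lists had 1 and 1, and Cck had an unadjusted p of 0.2. Among the remaining lists, those of peptides (13 tested), transcription factors (21), fast-spiking channels (11), neuromodulator receptors (15), perineuronal matrix (5), MSN markers (15) and the 7 genes the study names in striatum had 4, 1, 1, 1, 0, 0 and 0 genes at an unadjusted p under 0.05, with medians between -0.19 and 0.22. Without those cells 2 of the 15 MSN markers did, both lower. Of the 6 excitatory neuron markers 1 did, lower in Setd1a+/-, with a median of -0.33, and of the Th list both tested genes did, Th (31.1, 58.4, 70.2 and 71.7 CPM) and Trh, beside the larger share of subcluster 3.

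Markers of other cells were also followed. Red blood cell genes summed to 44.7, 119, 75.1 and 511 CPM in interneurons, the last mostly from the cell named above. Microglial genes summed to 59.8, 25.5, 179 and 27.3 CPM, with C1qa at 10.6, 5.76, 65.3 and 1.89 CPM. Oligodendrocyte genes summed to 332, 457, 632 and 251 CPM. Their part in the genotype differences was not tested.

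Subclusters 1, 2, 3 and 7 had at least 10 cells in every library and were tested on their own. In subcluster 1, with 60, 13, 15 and 36 cells, 5 of 2198 genes (0.227%) were called in edgeR, and 11 (0.5%) with the replicate block. Pantr1, a long noncoding RNA, rose in Setd1a+/-, being at 58.6, 62.6, 227 and 170 CPM (log2 1.71 ± 0.40, adjusted p = 0.0343 in edgeR). Glrb, the beta subunit of the glycine receptor, rose from 80.5 and 110 to 204 and 295 CPM, and Rgs4, a regulator of G protein signalling, rose from 76.9 and 62.6 to 340 and 140 CPM. Shank1, a scaffold of excitatory synapses, fell from 165 and 156 CPM to 56.6 and 29.5 CPM. The counts behind them were small, with 4 to 45 UMIs per library for these 4 genes, and 1 cell gave 13 of 20 and 13 of 23 Pantr1 UMIs in the Setd1a+/- libraries and 20 of 30 Rgs4 UMIs in Setd1a+/- replicate 1. Sst, the fifth gene called, lay at 835, 391, 328 and 177 CPM, but 207 of its 228 UMIs in WT replicate 1 came from 1 cell. Without that cell its log2 difference was 0.59 (adjusted p = 0.716 in edgeR) and 7 genes were called, Pantr1, Glrb, Rgs4 and Shank1 among them. With the block and without that cell 11 genes were called, Pantr1, Glrb and Rgs4 among them but not Shank1. In subclusters 2, 3 and 7, 0 of 2615, 0 of 1768 and 0 of 1260 genes (0%) were called, with 103, 71 and 44 at an unadjusted p under 0.05. With the block 1 (0.0382%), 4 (0.226%) and 0 (0%) were called. That of subcluster 2 was Calb2, which fell, being at 194, 173, 80.3 and 18.0 CPM from 32, 32, 9 and 2 UMIs (adjusted p = 0.999 in edgeR and 0.0265 with the block), and those of subcluster 3 were Gal, which rose, and Fos, Junb and AC149090.1, which fell. In the cluster of resolution 0.5 that held all 98 cells of subcluster 3 among its 131, none of these 4 genes was called with the block, at log2 differences of 1.63 for Gal, -1.40 for Fos, -1.15 for Junb and -0.89 for AC149090.1. On the deposited components, the cluster with 67 of the 98 cells kept the block calls of Gal and AC149090.1, and Fos and Junb did not pass the filter on low counts there. Clustering at a resolution of 0.5, or on the deposited integrated components, left 0 called genes in edgeR in every subcluster tested, with 44 to 214 per subcluster at an unadjusted p under 0.05, and 15 and 5 calls in all with the block.

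The genotype differences of interneurons and MSNs were compared in a model with an interaction of cell type and genotype, in which each library gave both types. Against D1 MSNs 3 of 10792 genes (0.0278%) differed at an FDR under 0.05, and against D2 MSNs 6 of 10105 (0.0594%). Most were haemoglobin genes, whose summed level in D2 MSNs was 882, 1183, 81.2 and 55.1 CPM, lower in both Setd1a+/- libraries, while the cell named above held most of these UMIs in interneurons of Setd1a+/- replicate 2. The remaining ones were Ccl5, a chemokine whose 11 interneuron UMIs all came from 1 cell of Setd1a+/- replicate 2, and, against D2 MSNs, Fxyd7 and Hpcal4. Fxyd7 was at 375, 351, 251 and 196 CPM in interneurons and at 35.5, 33.6, 53.9 and 38.0 CPM in D2 MSNs, so that it lay lower in the mutant libraries in the first type and higher in the second (interaction log2 -1.10 ± 0.20, adjusted p = 0.00865 in edgeR). Its adjusted p was 0.0244 without the excitatory neuron-like and oligodendrocyte-like cells and 0.0586 without WT replicate 1, so the call was lost in the second case, at an interaction log2 of -1.09. Hpcal4 was at 131, 118, 149 and 122 CPM in D2 MSNs, beside the interneuron levels given above (interaction log2 -0.88 ± 0.17, adjusted p = 0.0297 in edgeR). That call was lost without the excitatory neuron-like and oligodendrocyte-like cells, with an adjusted p of 0.346 in edgeR, and without WT replicate 1 (0.127), WT replicate 2 (0.204) or Setd1a+/- replicate 1 (0.107), while the interaction log2 was -0.91, -0.84 and -0.80 in these 3 fits. Fos missed the threshold against D1 MSNs, where it was at 56.1, 55.9, 72.4 and 49.6 CPM (interaction log2 1.02 ± 0.20, adjusted p = 0.0656 in edgeR). It passed without the excitatory neuron-like and oligodendrocyte-like cells (adjusted p = 0.014 in edgeR), without WT replicate 1 (0.0026) and without Setd1a+/- replicate 2 (5.82e-05), and missed it without WT replicate 2 (log2 0.87, adjusted p = 0.286 in edgeR) and without Setd1a+/- replicate 1 (log2 0.80, adjusted p = 0.245).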

How the data were processed

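The authors deposited raw UMI counts per gene and barcode for each library and a cell annotation of the striatum. They also deposited integrated principal component scores per cell, used only to recluster the interneurons as an alternative. Per the labels and the submitters' processing notes, reads were aligned to mm10 with Cell Ranger 3.0.2 and cells were clustered with Seurat 3.2.0. The counts of the 821 cells annotated as inhibitory were summed per library and given as CPM computed here. Genotypes were compared with edgeR 4.0.16 (quasi-likelihood test, TMM, filterByExpr with a minimum count of 10, R 4.3.3) with Benjamini-Hochberg adjustment over all genes tested. DESeq2 1.42.0, library-size scaling, no filter, a fold change of 1.5, thinning to 1000 UMIs, each library left out and a replicate block were alternatives.

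By the study's methods each biological replicate was made of a WT and a Setd1a+/- library. The methods do not say which libraries belong together, and they were paired here by their numbers for the block. The correlation of the deviations of same-numbered libraries from their genotype means was 0.120 in interneurons, 0.400 in D1 MSNs and 0.353 in D2 MSNs. Subclusters came from Leiden clustering (leidenalg 0.10.2, resolution 1, 20 components, 15 neighbours) of log-normalised counts without mitochondrial, ribosomal, haemoglobin, immediate early and stress genes. A subcluster was named where at least 3 markers of 1 list were each in 25% of its cells and 2-fold above the other interneurons, a rule set after seeing the data. The cells and gene lists were chosen with earlier results of these data known.

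Genes named are the 20 highest against other types among those at 50 CPM or more, the 10 lowest against MSNs among those at 200 CPM or more, each gene called, the 20 of smallest p whose genotypes did not overlap, the 4 of highest mean CPM per list, the 10 leading genes per subcluster and the 10 of smallest interaction p. Other members of lists, the genes of the block fits and the cells holding most UMIs of a gene were chosen after their values were seen. Of the genes the rule names, 1 is not reported here. The number of unused columns of per-sample values was 0. No doublet caller was run, and the sources used here do not mention doublet removal. The edgeR scripts were tested on simulated data. The study's own cell-level test was not run, since libraries and not cells are the replicates. The intervals cover counting error only.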

Additional observations from a re-analysis of the deposited data

Results flagged for a closer look

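The genotype effect differed between interneurons and D1 MSNs, by an interaction term of edgeR's quasi-likelihood test with an FDR under 0.05, for Hba-a1 (log2 3.02), Hbb-bs (1.74) and Ccl5 (11.54). Of the UMIs of these genes in interneurons of Setd1a+/- replicate 2, 1 cell held 169 of 180 for Hba-a1 and 260 of 286 for Hbb-bs, and another held all 11 for Ccl5. Without that library the adjusted p in edgeR was 0.37 for Hba-a1 (log2 2.51) and 1 for Ccl5, which then had no interneuron UMI left, while Hbb-bs kept its call (log2 1.98, adjusted p = 3.15e-07).

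Against D2 MSNs the same test gave Hba-a1 (7.70), Hbb-bs (5.20), Hba-a2 (6.16), Hbb-bt (7.06), Fxyd7 (-1.10) and Hpcal4 (-0.88). The haemoglobin genes were lower in D2 MSNs of both Setd1a+/- libraries, and 38 of 40 Hba-a2 UMIs and all 36 Hbb-bt UMIs of interneurons in Setd1a+/- replicate 2 came from the cell that held most Hba-a1. Without that library the adjusted p in edgeR was 0.0588 for Hba-a1 (log2 3.64) and 0.209 for Hbb-bt (log2 4.22), while Hbb-bs (log2 3.43, adjusted p = 1e-20) and Hba-a2 (log2 4.07, adjusted p = 0.000668) kept their calls. Fxyd7 and Hpcal4 rested on many cells, with a UMI in 390 and 314 interneurons and at most 1.57% and 2.28% of the UMIs in 1 cell, while 63.2% and 67.6% of their UMIs lay in the excitatory neuron-like subclusters. Without those and the oligodendrocyte-like cells the adjusted p in edgeR was 0.0244 for Fxyd7 and 0.346 for Hpcal4, and with 1 library left out at a time it ranged from 0.0043 to 0.0586 and from 0.0134 to 0.204.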

How the results depend on the processing

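With the replicate block, 8 genes were called in interneurons in place of 0, 18 without the excitatory neuron-like and oligodendrocyte-like cells, and 4 without the cells highest in Hba-a1 and Mt2. The block gave 2 calls in cells thinned to 1000 UMIs, 0 without the cells with at least 2 MSN marker UMIs, and 16 in place of 5 within subclusters. Without a filter on low counts 22 genes were called. Leaving out 1 library gave 11 (without WT replicate 1), 20 (WT replicate 2), 39 (Setd1a+/- replicate 1) and 19 (Setd1a+/- replicate 2) calls, with the lone library of a genotype assumed to vary like the others. Interaction counts then ranged from 13 to 41 in place of 3 against D1 MSNs and from 11 to 27 in place of 6 against D2 MSNs, and were 10 and 17 without the excitatory neuron-like and oligodendrocyte-like cells. The difference in the share of interneurons ranged from -1.52 (without Setd1a+/- replicate 2) to 4.78, and Cplx3 turned to 0.39 without the excitatory neuron-like and oligodendrocyte-like cells. Subcluster calls were 0 at a resolution of 0.5 and 0 on the deposited components, and 15 and 5 with the block. The combinations of the block with thinning, left-out cells or another clustering were chosen after seeing the data. The cause of these changes was not tested. Of the other values for single genes, 180 kept their direction and side of the threshold and 39 passed it in addition. With 2 libraries per genotype, exact tests cannot go below 0.33, and 138 to 248 cells per library leave small counts in most subclusters.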
